A study of Homo sapiens with 24 samples.

Results

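The 35 genes described here are the 13 messenger RNAs of the human mitochondrial genome and 22 nuclear genes whose products copy that genome and transcribe, process or stabilise its RNA. They were taken by symbol from both deposited tables, which hold 35587 gene symbols each, and all 35 were listed. RNA was sequenced from MOLM14 and OCI-AML2, both established human acute myeloid leukaemia cell lines, after 24 h with DMSO (the vehicle), with AZ2 or with ARM165. Each line has 3 treatment groups of 4 libraries, 24 libraries in all, made from poly(A) RNA with a stranded kit. From the published work on this study, ARM165 is a heterobifunctional degrader, a molecule that brings its target to the cell's protein disposal, directed at PI3K gamma, and AZ2 is an inhibitor of that kinase, but the labels do not say so. The labels give no doses, so the compounds are set side by side at doses not known to match. The labels do not say that replicates came from separate cultures, so the p-values rest on the variation among libraries, some or all of which may be technical.

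The mitochondrial genome is a small circle that is transcribed from both strands into long precursors. Most mitochondrial mRNAs are cut out of the heavy-strand precursor at the tRNAs that lie between them, and MT-ND6 alone comes from the other strand. POLRMT, the mitochondrial RNA polymerase, starts transcription with TFAM and TFB2M, the LRPPRC and SLIRP pair holds the finished mRNAs stable, MTPAP adds their poly(A) tails, and every one of these factors is made from nuclear genes. The mitochondrial mRNAs encode subunits of respiratory complexes I, III, IV and V.

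In this genome 3 pairs of neighbouring mRNA genes overlap, and the 2 longer overlaps are shown. A read wholly inside the longest could not be given to 1 gene, while the overlap of 7 bases is too short to hold a read. In GRCh38 with GENCODE release 29, MT-ATP8 ends 46 bases after MT-ATP6 begins, at chrM:8527-8572 on the plus strand. MT-ND4L and MT-ND4 share 7 bases at chrM:10760-10766, and MT-ATP6 and MT-CO3 share 1. Capitals mark the start codon of the second gene of each pair printed.
MT-ATP8 and MT-ATP6: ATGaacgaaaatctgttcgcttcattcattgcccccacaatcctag
MT-ND4L and MT-ND4: ATGctaa

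Of the 22 nuclear genes, 18 have an entry in the RefSeq promoter table (GRCh38.p14). The 250 bases before the annotated start were searched on both strands for the core letters CGCATGCG of nuclear respiratory factor 1 (NRF1), the core CCGGAAG of ETS factors such as GABPA, and the E-box CACGTG bound by MYC and related factors. No 2 of these motifs overlapped. The NRF1 core lay in 4 of the 18 windows (TFB2M, TFB1M, MTPAP and POLRMT), or 22.2%, against 1.86% of 27305 promoters. The ETS core lay in 6 windows (POLRMT, TFB1M, MTERF1, MTERF4, POLG2 and SLIRP), or 33.3%, against 8.82%, and the E-box in 0, against 6.49%. These are matches of letters and say nothing of binding. The 3 windows printed here belong to TFB1M (grouped here under transcription), MTPAP (tail addition) and POLG2 (replication). All 3 windows hold a match, and capitals mark the matches. Each is cut to its longest stretch outside every GENCODE exon. They lie at chr6:155314494-155314734, chr10:30349320-30349528 and chr17:64497055-64497304, all on the minus strand.
TFB1M: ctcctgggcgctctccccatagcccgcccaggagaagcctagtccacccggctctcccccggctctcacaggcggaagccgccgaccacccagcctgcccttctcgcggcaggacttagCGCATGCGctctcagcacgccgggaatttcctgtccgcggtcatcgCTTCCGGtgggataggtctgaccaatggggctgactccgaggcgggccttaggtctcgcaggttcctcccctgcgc
MTPAP: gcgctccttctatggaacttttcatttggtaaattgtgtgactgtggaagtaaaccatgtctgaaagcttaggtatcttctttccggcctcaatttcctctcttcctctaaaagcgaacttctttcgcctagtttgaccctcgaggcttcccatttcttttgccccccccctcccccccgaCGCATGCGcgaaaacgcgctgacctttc
POLG2: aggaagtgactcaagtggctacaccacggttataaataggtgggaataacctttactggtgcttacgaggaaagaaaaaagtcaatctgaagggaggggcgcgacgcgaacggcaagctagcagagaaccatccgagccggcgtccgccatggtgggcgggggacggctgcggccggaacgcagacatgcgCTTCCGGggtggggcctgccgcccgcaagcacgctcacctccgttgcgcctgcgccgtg

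Values in the tables are the authors' normalized estimated counts per gene, here called normalized counts. The tables of the 2 lines were scaled separately, so no normalized count is compared between lines. Estimated depth was 3.54e+07 to 5.90e+07 reads per library. The estimate takes the most frequent small value of a library as 1 read. Only 15.1 to 15.8% of values above 0 were then whole numbers of reads (within 0.01), so the depth is a rough guess. Changes are differences of log2(value + 1) with a standard error (SE), and a gene was called where the limma test gave an adjusted p under 0.05 over all genes kept. A gene was kept where at least 4 of a line's 12 libraries held a value of at least 10, which left 15288 genes in MOLM14 and 15377 in OCI-AML2. All 35 members passed in MOLM14 and 34 in OCI-AML2. MTERF2, a member of the family of mitochondrial termination factors, was the exception: its OCI-AML2 values were 0 in 8 of 12 libraries and at most 6.41. The myeloid markers CD33, SPI1, CEBPA, LYZ and FLT3 were present in all groups of both lines. The summed myeloid markers averaged 83501 with DMSO and 52542 with ARM165 in MOLM14, and 101199 and 55380 in OCI-AML2, and the part of this in the results below was not tested. Single markers went both ways: of 9 tested, 5 fell and 3 rose (PTPRC, SPI1 and ITGAM) in MOLM14, and 5 fell and 1 rose (PTPRC) in OCI-AML2. LYZ averaged 20319 with DMSO and 2677 with ARM165 in MOLM14, while PTPRC averaged 2392 and 6229. CD34 stayed under the minimum of 10 on average in every group given here, and MPO fell under it in OCI-AML2 with ARM165. T and NK cell markers summed to 359 to 903 per library, nearly all of it NKG7. The lists of B cells, erythroid cells, megakaryocytes, and epithelium with fibroblasts reached at most 125 per library, and PF4 was at 0 throughout. In these bulk samples, fewer cells of a kind and less RNA per cell cannot be told apart.

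ARM165 changed most genes of both lines. In MOLM14, 69.5% of genes tested were called against DMSO, 35.5% higher and 34.0% lower, and in OCI-AML2 65.8%, 34.2% higher and 31.6% lower. The share of all genes whose ARM165 and DMSO libraries did not overlap is not given here. A lack of overlap is therefore stated for single genes and is not a mark of these members. Of the 13 mitochondrial mRNAs, 11 fell with ARM165 in MOLM14, 1 rose and 1 was not called. In OCI-AML2, 12 fell and 1 was not called. Their median change was -0.42 in MOLM14 and -0.62 in OCI-AML2, where the median over all genes was 0.031 and 0.034. The libraries were made from poly(A) RNA, so counts of mitochondrial mRNAs can depend on their tails, which were not measured. Changes in amount and in tails cannot be told apart here, and the part of tails was not tested. Of the 22 nuclear genes, 21 fell in MOLM14, 0 rose and 1 was not called, with a median of -0.70. In OCI-AML2, 12 of 21 nuclear genes fell, 4 rose and 5 were not called, with a median of -0.45. The median therefore lay lower in the nuclear genes than in the mitochondrial mRNAs in MOLM14, and lower in the mitochondrial mRNAs in OCI-AML2. That difference in order was not tested. In MOLM14 the directions of some mitochondrial mRNAs depend on the scaling of libraries. The summed normalized counts of a library averaged 44179900 with DMSO and 38721800 with ARM165 there. With each library scaled to the same total, the median of all genes moves by 0.19 in MOLM14 (to 0.22) and 61.6% of calls are higher, in place of 51.1%. The nuclear genes TEFM, MTERF4, POLG, POLG2 and SSBP1 were then not called in MOLM14, which left 16 lower. Under that scaling 8 mitochondrial mRNAs were lower and 2 higher (MT-ND1 and MT-CYB) in MOLM14, and 12 and 0 in OCI-AML2.

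The share of the library taken by the mitochondrial mRNAs does not depend on its scaling factor. In MOLM14 the 13 mRNAs together made up 5.33, 5.45, 5.07 and 5.31% of the DMSO libraries, 5.39, 6.32, 5.57 and 5.65% with AZ2, and 4.92, 5.08, 4.73 and 4.49% with ARM165. The DMSO and ARM165 libraries overlapped, since the highest ARM165 library lay just above the lowest DMSO library. The means were 5.29 ± 0.158% (SD, n = 4) with DMSO, 5.73 ± 0.407% with AZ2 and 4.80 ± 0.253% with ARM165, a change of -9.18% from DMSO to ARM165. In OCI-AML2 the shares were 7.51, 7.20, 7.64 and 8.11% with DMSO, 8.63, 8.09, 7.75 and 8.04% with AZ2, and 5.23, 5.91, 5.48 and 5.02% with ARM165. There every ARM165 library lay below every DMSO library, and the mean went from 7.61 ± 0.380% to 5.41 ± 0.381%, a change of -28.9%. The 22 nuclear genes took far less of the library: 0.166 ± 0.00148% with DMSO and 0.113 ± 0.00217% with ARM165 in MOLM14, a change of -31.8%. In OCI-AML2 they took 0.147 ± 0.00538% and 0.112 ± 0.00364%, a change of -23.4%. Such a share is weighted to abundant genes. In OCI-AML2 TOP1MT alone averaged 9465 of a nuclear sum of 64639 with DMSO, and 2910 of 48389 with ARM165. Of the 21 nuclear genes tested there, 14 changes were below 0 and 7 above. For the nuclear share the ARM165 and DMSO libraries did not overlap in either line.

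**Figure D1:**
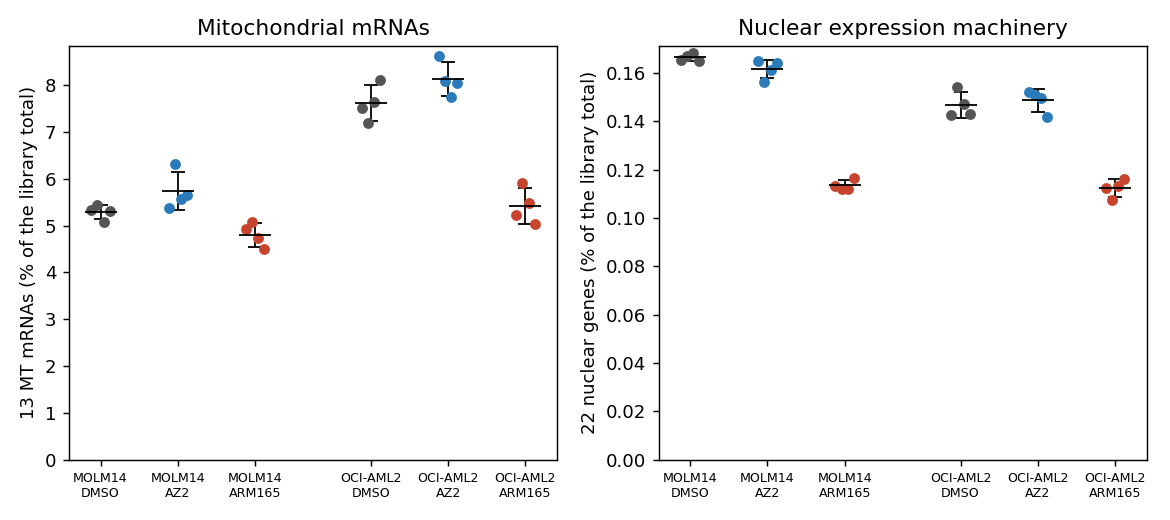
Share of each library's summed normalized counts, in percent, taken by the 13 mitochondrial mRNAs (left) and by the 22 nuclear genes (right), for each of the 6 groups. Points are libraries, and the long bar with whiskers is the mean ± SD of 4. With ARM165 the mitochondrial share of OCI-AML2 sits between 5.02 and 5.91%, below the DMSO libraries, while in MOLM14 the groups overlap.

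Complex I of the respiratory chain takes 7 of the mitochondrial mRNAs. MT-ND1, the first mRNA of the heavy-strand precursor after the ribosomal RNAs, was the exception among them. MT-ND1 held 174671, 180705, 168251 and 173107 normalized counts in the MOLM14 DMSO libraries and 194654, 193158, 186552 and 189578 with ARM165. All 4 ARM165 libraries were above the DMSO libraries, by 0.13 (SE 0.052, adjusted p = 0.0328). This call was lost when any 1 of DMSO libraries 1, 3 and 4 or ARM165 libraries 1 and 2 was left out (adjusted p 0.050 to 0.093), and with no filter (0.075). Its OCI-AML2 libraries overlapped, with 174405, 159221, 190630 and 188694 for DMSO and 155805, 192303, 173737 and 154740 for ARM165, a difference of -0.08 (95% interval -0.24 to 0.09, adjusted p = 0.398).

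MT-ND5 fell most of the mitochondrial mRNAs in each line. Its MOLM14 values were 202940, 203533, 198453 and 203585 with DMSO and 125196, 129478, 121786 and 131141 with ARM165, a change of -0.67 (SE 0.052, adjusted p = 1.40e-08). The OCI-AML2 values were 211896, 204744, 215999 and 223140 with DMSO and 121561, 134705, 120574 and 112624 with ARM165, a change of -0.81 (SE 0.06, adjusted p = 8.29e-09). ARM165 libraries lay below every DMSO library in both lines, near 63% and 57% of the DMSO mean.

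MT-ND6, the light-strand mRNA, is known to carry little or no poly(A) tail, and whether the counting used strand was not given in the sources used here, so its level is uncertain. It held 53766, 52171, 49582 and 50599 normalized counts with DMSO and 32279, 33139, 32084 and 36018 with ARM165 in MOLM14. In OCI-AML2 it held 62702, 53996, 71812 and 68821 with DMSO and 38861, 45234, 43199.6 and 39975 with ARM165. The groups did not overlap in either line, and the changes were -0.63 and -0.62 (adjusted p = 1.22e-07 and 4.10e-06).

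The remaining complex I mRNAs fell in both lines, with no overlap between ARM165 and DMSO libraries. MT-ND2 held 177775, 180403, 171825 and 173127 with DMSO and 140898, 143745, 136359 and 144691 with ARM165 in MOLM14, and 189970, 184768, 197138 and 203439 and 120038, 138541, 129425 and 117839 in OCI-AML2. MT-ND3 held 55131, 49964, 48538 and 50180.1 and 36826, 37521, 35222 and 43355 in MOLM14, and 44697, 54967, 54854 and 53348 and 28679, 32841, 31118 and 30258 in OCI-AML2. The changes in MOLM14 and OCI-AML2 were -0.31 and -0.62 for MT-ND2, and -0.42 and -0.75 for MT-ND3, so both fell further in OCI-AML2. MT-ND4 and MT-ND4L leave the precursor as 1 joint mRNA. MT-ND4 held 287940, 289754, 276705 and 283849 and 238917, 249110, 232319 and 234675 in MOLM14, and 409984, 389677, 426713 and 440837 and 301108, 351179, 319801 and 299666 in OCI-AML2. MT-ND4L held 10467 to 11561 with DMSO and 8252 to 9958 with ARM165 in MOLM14, and 36711 to 41209 and 26011 to 33294 in OCI-AML2. Their changes were -0.25 and -0.26 in MOLM14 (adjusted p = 0.00102 and 0.00989) and -0.39 and -0.45 in OCI-AML2 (adjusted p = 1.07e-04 and 5.58e-05). With library totals as the scaling, neither passed in MOLM14, both at -0.06 (adjusted p = 0.36 and 0.53). With quantile normalization MT-ND2 and MT-ND4 stood at 0.032 and 0.014 in MOLM14 (adjusted p = 0.63 and 0.78), against their direction with the deposited scaling. MT-ND3, MT-ND4L and MT-ATP6 were then not called in MOLM14 either (-0.11, -0.19 and -0.16, adjusted p = 0.091, 0.062 and 0.062).

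MT-CO1, MT-CO2 and MT-CO3 encode the catalytic core of complex IV, cytochrome c oxidase, and held the most normalized counts per length among the mitochondrial mRNAs. Per kilobase of mRNA, the MOLM14 DMSO means were 384207 ± 9792 for MT-CO3, 365939 ± 9898 for MT-CO2 and 359690 ± 4005 for MT-CO1, and the spreads of neighbours overlapped. MT-ND4 followed at 206504 ± 4202, and MT-ND4L was lowest at 36557 ± 1639. Both of these lie on a joint mRNA, so a value per kilobase cannot be read as an amount of mRNA. Whole gene lengths were used, with no correction for short genes. In OCI-AML2 the order was MT-CO2 at 616832 ± 23707, MT-CO1 at 590267 ± 10096 and MT-CO3 at 549196 ± 15392 per kilobase, with MT-ND5 lowest at 118071 ± 4246. MT-CO1 held 559032, 552607, 546822 and 560107 normalized counts with DMSO and 467544, 467621, 461095 and 446603 with ARM165 in MOLM14. OCI-AML2 libraries held 911161, 903169, 895075 and 931364 and 571230, 632404, 595174 and 561227. The groups were apart in each line, by -0.27 (adjusted p = 3.01e-04) and -0.63 (adjusted p = 1.38e-07), the larger fall being in OCI-AML2. MT-CO1 held the second largest value of all genes in each of the 24 libraries, so quantile normalization sets its change to 0 by construction. With library totals its change in MOLM14 was -0.08 (adjusted p = 0.15).

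MT-CO2 held 256495, 255415, 242515 and 246784 with DMSO and 167262, 178310, 176659 and 179746 with ARM165 in MOLM14, and 403309, 413596, 433009 and 437739 and 264056, 314795, 315900 and 282887 in OCI-AML2. MT-CO3 held 308365, 301486, 290504 and 304516 and 216270, 218415, 213794 and 214213 in MOLM14, and 413032, 432228, 438050 and 438971 and 297056, 328423, 323486 and 299866 in OCI-AML2. Both fell to near 70% of DMSO in both lines without overlap, MT-CO2 by -0.51 and -0.52 and MT-CO3 by -0.48 and -0.46 in MOLM14 and OCI-AML2. The largest adjusted p of these 4 changes was 5.95e-06.

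The ATP synthase mRNAs MT-ATP6 and MT-ATP8, which form 1 joint mRNA and share the 46 bases shown above, also fell together. MT-ATP6 held 138499, 135252, 130858 and 133269 and 96317, 99013, 95414 and 91538 for DMSO and ARM165 in MOLM14, and 204944, 215182, 215197 and 222500 and 119090, 153244, 130553 and 118066 in OCI-AML2. MT-ATP8 ranged over 26537 to 29807 with DMSO and 16943 to 21677 with ARM165 in MOLM14, and over 29269 to 38252 and 21299 to 23033 in OCI-AML2. No ARM165 library reached a DMSO library. The changes were -0.49 and -0.62 in MOLM14 and -0.73 and -0.65 in OCI-AML2, with adjusted p of 4.25e-06 or less. The nuclear copy MTATP6P1, which can take reads from MT-ATP6, averaged 13634 ± 607 with DMSO and 10202 ± 795 with ARM165 in MOLM14, and 23947 ± 1939 and 13137 ± 1846 in OCI-AML2, lower in both (-0.42 and -0.87), so a split of reads with this copy leaves the levels uncertain.

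MT-CYB, the only complex III subunit made in mitochondria, held 119150, 118292, 116586 and 116290 with DMSO and 114393, 113334, 110496 and 111714 with ARM165 in MOLM14. The 2 groups did not overlap, but the difference of -0.06 (95% interval -0.16 to 0.03, adjusted p = 0.206) was not called. It was higher in place of lower under library totals (0.13, adjusted p = 0.026) and quantile normalization (0.22, adjusted p = 0.0034). In OCI-AML2 it held 175361, 185516, 181272 and 189104 with DMSO and 137931, 165572, 143878 and 133048 with ARM165 and fell by -0.34 (adjusted p = 4.49e-04).

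**Figure D2:**
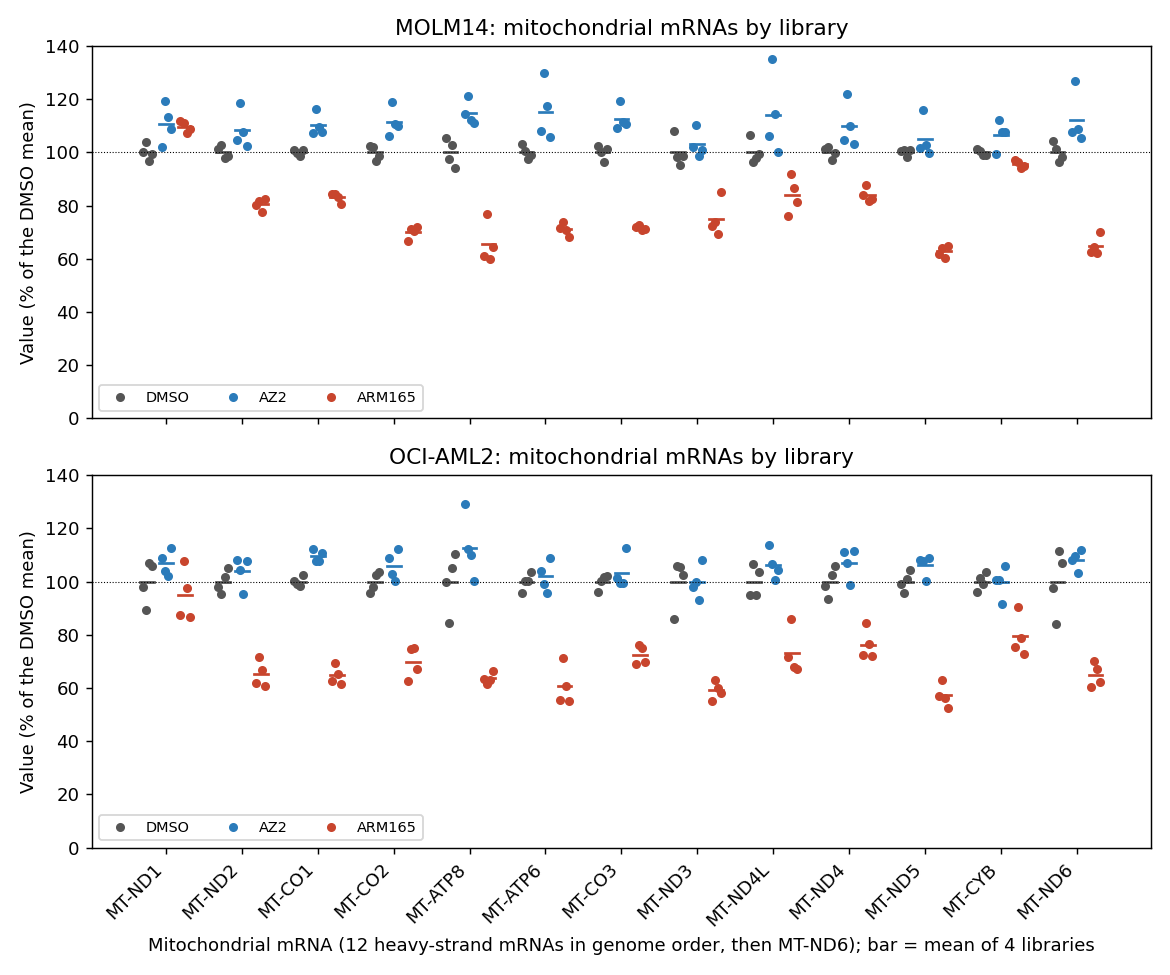
Normalized counts of the 13 mitochondrial mRNAs in each library, as a percentage of the DMSO mean of the same line (dotted line at 100), for MOLM14 (top) and OCI-AML2 (bottom). Points are libraries and bars are means of 4. ARM165 libraries lie below DMSO for all but MT-ND1, from a mean of 62.8% for MT-ND5 to 95.7% for MT-CYB in MOLM14 and from 57.2% to 79.4% in OCI-AML2.

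Within the mitochondrial mRNAs the composition changed, and this ratio within a library does not depend on its scaling factor. The ratio can still depend on the poly(A) tails, the part of which was not tested. MT-ND1 went from 7.35 to 7.66% of the mitochondrial sum with DMSO to 10.2 to 10.5% with ARM165 in MOLM14, and from 4.87 to 5.62% to 7.04 to 7.56% in OCI-AML2. MT-ND4 and MT-CYB also took a larger share in every ARM165 library than in any DMSO library of both lines, with MT-CYB at 5.03% and 6.06% in MOLM14 and 5.45% and 6.22% in OCI-AML2. MT-ND5 and MT-ATP6 took a smaller share without overlap in both lines, MT-ND5 going from 8.65% to 6.83% in MOLM14 and from 6.38% to 5.25% in OCI-AML2. MT-CO1 went opposite ways, from 23.7% to 24.8% in MOLM14 and from 27.2% to 25.3% in OCI-AML2. Along the heavy-strand precursor the change did not follow a single slope: it was least negative at both ends, at MT-ND1 and MT-CYB, and most negative at MT-ND5, the neighbour of MT-CYB among the heavy-strand mRNAs. Across the 13 mRNAs the changes of the 2 lines had a Pearson r of 0.82 and a Spearman rho of 0.73, given as a description over mRNAs that share libraries and a precursor.

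**Figure D3:**
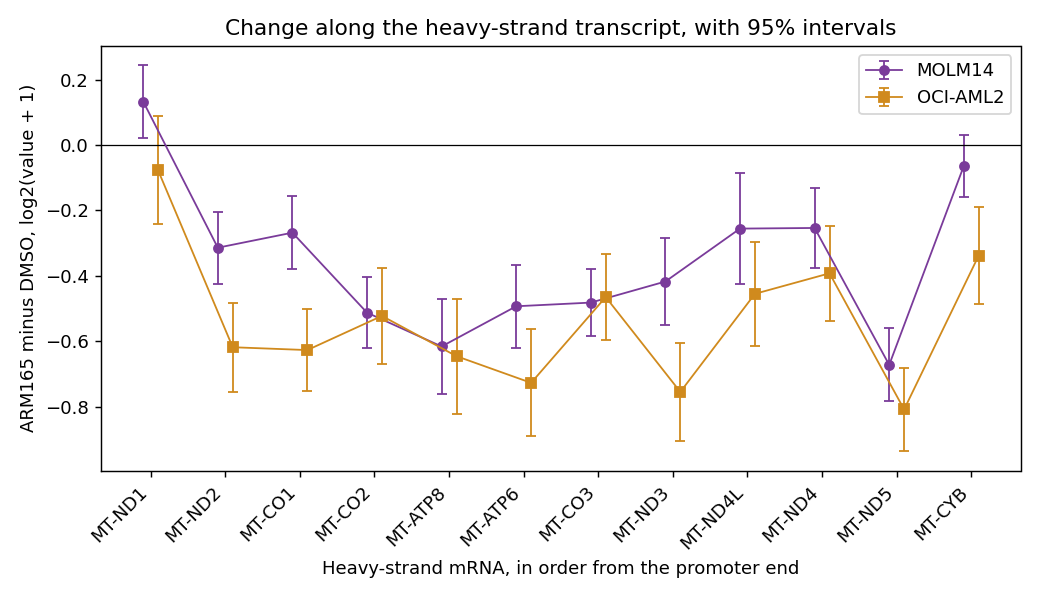
Change of the 12 heavy-strand mitochondrial mRNAs with ARM165 (ARM165 minus DMSO on the log2(value + 1) scale) in their order along the genome, with 95% intervals of single genes, for MOLM14 (circles) and OCI-AML2 (squares). MT-ND1 sits at 0.13 and -0.08, and MT-ND5 lowest at -0.67 and -0.81.

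Of the 9 nuclear genes grouped here under transcription, 8 fell with ARM165 in MOLM14, and in OCI-AML2 4 of 8 fell and 1 rose. Over all genes tested 34.0% fell in MOLM14, and 31.6% fell and 34.2% rose in OCI-AML2. In all, 65.8% of genes were called in OCI-AML2, and the share called of this group lay near that. The group includes TFB1M and MTERF4, whose roles in the ribosome are given below. TFAM, which bends and packages mitochondrial DNA and opens its promoters, held 6876, 6745, 7181 and 6673 with DMSO, 7233, 6686, 7126 and 6684 with AZ2 and 3105, 3046, 3179 and 3419.6 with ARM165 in MOLM14. OCI-AML2 libraries held 3149, 2973, 3049 and 2937, 2740.5, 3047, 2677 and 2560.4 and 1733, 1353, 1579 and 2013. ARM165 libraries lay below all others in both lines, with changes against DMSO of -1.11 (SE 0.047, adjusted p = 1.19e-11) and -0.87 (SE 0.096, adjusted p = 8.03e-07). TFB2M, which melts the promoter for the polymerase, held 6682, 6505, 6884 and 6829 with DMSO and 2847, 2535, 2980.2 and 3111 with ARM165 in MOLM14, and 4594, 4947, 4755 and 4038 and 2184, 2230.3, 2417 and 2689 in OCI-AML2. It was near 43% and 52% of DMSO, at -1.23 (adjusted p = 3.58e-11) and -0.95 (adjusted p = 1.40e-08), without overlap. TFB1M, its paralog that methylates the small ribosomal RNA, changed by -0.85 and -0.45 (adjusted p = 1.08e-07 and 0.00496), from 861 to 1004 to 483 to 576 in MOLM14 and from 298 to 456 to 249 to 316 in OCI-AML2, where the ranges overlapped.

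POLRMT, the polymerase itself, held 1414, 1449, 1385 and 1292 with DMSO and 790.4, 887, 992 and 991 with ARM165 in MOLM14, lower in every library (-0.60, adjusted p = 3.64e-06). In OCI-AML2 it held 1351, 1139, 1595 and 1293 with DMSO and 1519, 1903, 1523 and 1171 with ARM165. These overlapped widely, with a difference of 0.18 (95% interval -0.11 to 0.46, adjusted p = 0.272). Without ARM165 library 4 the difference was 0.30 and was called (adjusted p = 0.048). A pseudogene of this gene, POLRMTP1, averaged 18.1 and 12.1 in the 2 lines, far under the gene.

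TEFM, the elongation factor, changed by -0.27 in MOLM14 (adjusted p = 0.0173), from 1708, 1805, 1769.6 and 1570.1 to 1446, 1246, 1383 and 1627 with 1 ARM165 library inside the DMSO range. Without ARM165 library 2 it was not called (-0.21, adjusted p = 0.062). Its OCI-AML2 difference was 0.15 (interval -0.07 to 0.38, not called), with libraries over 808 to 987 and 795 to 1128, but without ARM165 library 3 it was called at 0.25 (adjusted p = 0.028). MTERF1, a termination factor, held 206, 251, 226 and 249 with DMSO and 292, 296, 296 and 336 with ARM165 in OCI-AML2 and rose by 0.39 (adjusted p = 0.00461), without overlap, though not with quantile normalization (0.22, adjusted p = 0.086). In MOLM14 the values of MTERF1 overlapped, at 469 to 512 and 380.0 to 531 (-0.07, interval -0.29 to 0.14). MTERF3, known to repress mitochondrial transcription, fell in both lines, from 2166 to 2509 to 1277 to 1582 in MOLM14 (-0.69, adjusted p = 3.04e-07) and from 3299 to 4375 to 2697 to 3294 in OCI-AML2 (-0.30, adjusted p = 0.00855). MTERF2 fell in MOLM14, from 326, 317, 258 and 291 to 149, 150.2, 137 and 169 (-0.97, adjusted p = 4.09e-06). MTERF4, which acts in ribosome assembly, changed by -0.25 in MOLM14 (adjusted p = 0.0115) and by -0.02 in OCI-AML2, where it was not called.

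Among the 5 genes of mitochondrial DNA replication, TWNK and TOP1MT fell most. TWNK, the replicative helicase Twinkle, held 2608, 2377, 2588 and 2409 with DMSO and 1035, 955, 1081 and 1059 with ARM165 in MOLM14, and 1083, 1104, 1139 and 1095 and 531, 510.2, 508 and 548 in OCI-AML2. It was at 41.4% and 47.4% of DMSO, with changes of -1.27 (adjusted p = 1.35e-11) and -1.08 (adjusted p = 6.05e-10) and no overlap. TOP1MT, the mitochondrial type I topoisomerase, held 4538, 4402, 4828 and 4631 with DMSO and 2180.2, 2055, 2493 and 2469 with ARM165 in MOLM14, and 9211, 9423, 9670.0 and 9558 and 2903, 2749.9, 3101 and 2887 in OCI-AML2. Its fall to 30.7% in OCI-AML2 (-1.70, SE 0.048, adjusted p = 1.44e-13) was the largest of all 35 genes in either line, and in MOLM14 it fell to 50% (adjusted p = 7.58e-10).

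The subunits of polymerase gamma, the mitochondrial DNA polymerase, went apart in OCI-AML2. POLG2, the accessory subunit, held 1116, 1205, 1275 and 1141 with DMSO and 609.9, 575, 735 and 679.6 with ARM165 there (-0.87, adjusted p = 2.14e-07). POLG, the catalytic subunit, held 1990.1, 1929.9, 2223 and 1932 with DMSO, 3142, 2369, 2990.2 and 2637 with AZ2 and 2147, 3498, 2367 and 2329 with ARM165, a rise of 0.33 (adjusted p = 0.033) with overlapping libraries. ARM165 library 2 was far above the others for POLG, and without it the difference was 0.18 and was not called (adjusted p = 0.10). The call was also lost without DMSO library 1, 2 or 4, with no filter, with quantile normalization, with factors from nuclear genes and with no variance trend (adjusted p 0.059 to 0.076). In MOLM14 both were lower, POLG from 2511 to 2871 to 2097 to 2456 (-0.27, adjusted p = 0.00115) and POLG2 from 911 to 1002 to 800.2 to 926 (-0.19, adjusted p = 0.0218). The POLG2 call in MOLM14 was lost without DMSO library 2 or 3 or ARM165 library 1 (adjusted p 0.051 to 0.064), and under library totals its change was 0.0032. SSBP1, which coats single-stranded mitochondrial DNA, changed by -0.28 in MOLM14 (adjusted p = 0.00443), over 7835 to 8389 and 6052 to 7612, and by 0.08 in OCI-AML2 (interval -0.07 to 0.23, not called).

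All 8 genes of mRNA stability and processing fell in MOLM14, and in OCI-AML2 5 fell and 2 rose. Of all genes tested, 34.0% fell in MOLM14, and 31.6% fell and 34.2% rose in OCI-AML2. LRPPRC held 11017, 10827, 11435 and 11439 with DMSO and 5341, 5093, 5321 and 5971 with ARM165 in MOLM14 (-1.04, adjusted p = 4.84e-11). OCI-AML2 libraries held 2891, 4807, 3263 and 3252 and 1900.1, 2085, 1938 and 2089 (-0.80, adjusted p = 1.54e-05), DMSO library 2 standing above the rest. SLIRP, its partner, held 4349.9, 3847, 4276 and 3812 and 1573, 1669, 1654 and 2028 in MOLM14 and 5695, 7395, 6026 and 5836 and 3456, 3727, 4100.0 and 3361 in OCI-AML2. It fell to 42.5% and 58.7% of DMSO (-1.24 and -0.77, adjusted p = 1.69e-09 and 1.03e-06), so both partners of the stabilising pair were lower in both lines with no overlap. PNPT1, polynucleotide phosphorylase of the mitochondrial RNA degradosome, held 3667, 3553, 3629 and 3610.5 and 1759, 1672, 1647 and 1791 in MOLM14 and 1644, 1761, 1733 and 1693 and 1147, 989, 1172 and 1234 in OCI-AML2 (-1.07 and -0.59, adjusted p = 6.12e-11 and 4.52e-06). MTPAP, the poly(A) polymerase, fell in MOLM14 from 2114 to 2385 to 1639 to 1796 (-0.42, adjusted p = 1.71e-05). In OCI-AML2 it held 1783, 2191, 1803 and 1732 with DMSO and 2356, 2090.1, 1945 and 2326 with ARM165, a rise of 0.22 (adjusted p = 0.0285) with overlap that was lost without any 1 of 5 libraries (DMSO 1, 3 or 4, ARM165 1 or 4) and under the same 4 settings as for POLG (adjusted p 0.051 to 0.090).

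The FASTKD proteins bind mitochondrial RNA and take part in its processing and stability, each on its own set of transcripts. FASTKD2 held 4758, 4782, 5116 and 4653 with DMSO and 3554, 3657, 3534 and 4171 with ARM165 in MOLM14, lower in all 4 libraries. OCI-AML2 libraries held 2927, 3511, 2822 and 2679.7 with DMSO and 4763, 4073, 4257 and 4647 with ARM165, higher in all 4 libraries. Its changes were -0.37 (adjusted p = 2.99e-05) and 0.58 (adjusted p = 1.49e-05). FASTKD3 held 3190.1, 3576, 3179 and 2993 with DMSO and 1492, 1297, 1799 and 1639.7 with ARM165 in OCI-AML2 and 1143 to 1357 and 611 to 771 in MOLM14, lower in both (-1.06 and -0.85). FASTKD1 was lower in both lines (-0.70 in MOLM14 and -0.67 in OCI-AML2), over 1294 to 1583 and 753 to 1056 in MOLM14. FASTKD5, needed to cut junctions that lack a tRNA, fell in MOLM14 from 4094 to 4303 to 2928 to 3271 (-0.46) and was not called in OCI-AML2 (-0.17, interval -0.33 to -0.00, adjusted p = 0.0657). It was called lower in OCI-AML2 with quantile normalization (-0.22, adjusted p = 0.0070), with factors from nuclear genes (-0.20, 0.019), and without DMSO library 4 (-0.20, 0.048) or ARM165 library 4 (-0.21, 0.030).

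**Figure D4:**
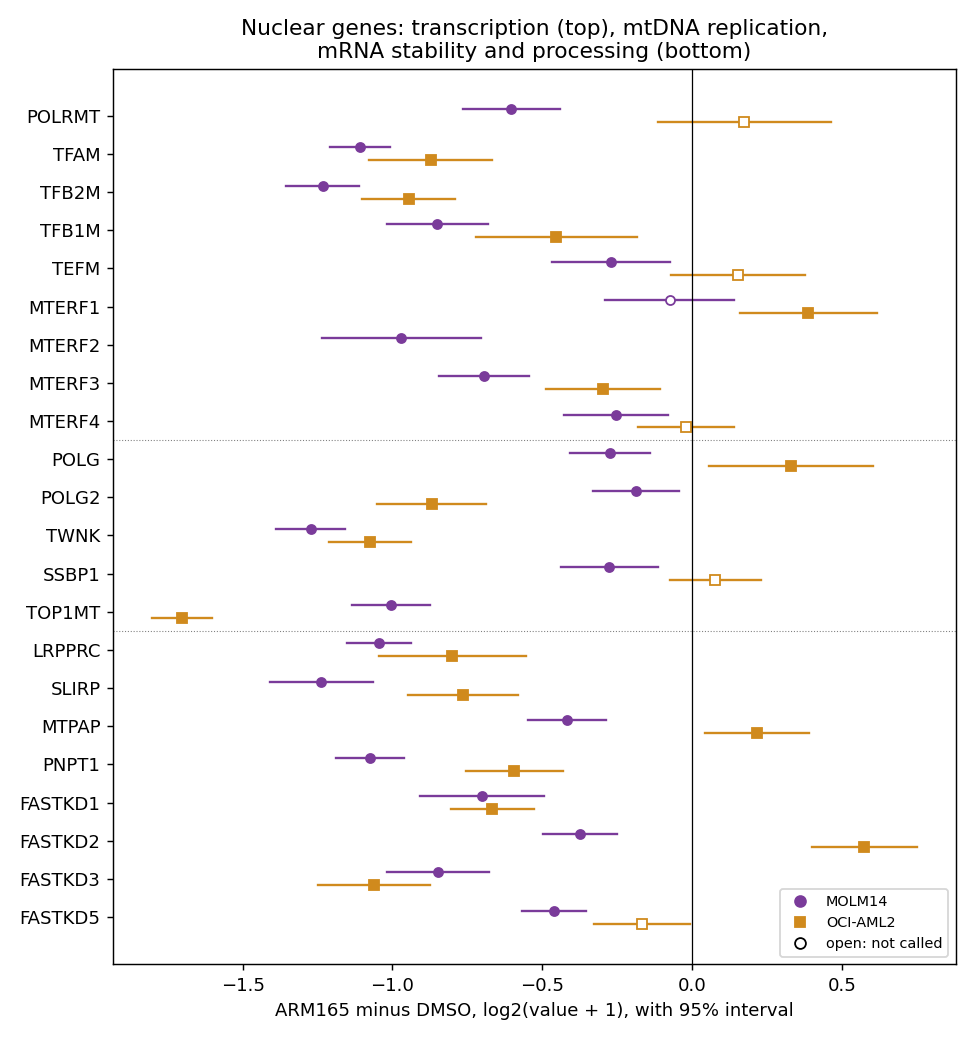
Change of the 22 nuclear genes with ARM165 (ARM165 minus DMSO on the log2(value + 1) scale), with 95% intervals of single genes, for MOLM14 (circles) and OCI-AML2 (squares). Open symbols were not called, and MTERF2 was tested only in MOLM14. All MOLM14 points lie left of 0, and in OCI-AML2 the points reach from -1.70 for TOP1MT to 0.58 for FASTKD2.

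The difference between the lines in the change with ARM165 was tested in 1 fit over 14287 genes kept in both, of which 42.4% were called, 24.3% with the more positive change in OCI-AML2 and 18.1% with the more negative. Of the 13 mitochondrial mRNAs, 4 had the more negative change in OCI-AML2 and 0 the more positive: MT-CO1 (-0.36, adjusted p = 1.71e-04), MT-ND3 (-0.34, 0.00712), MT-ND2 (-0.30, 0.00328) and MT-CYB (-0.27, 0.00745). Without ARM165 library 2 of OCI-AML2 8 were called, and with library totals 9. Of 21 nuclear genes, 14 had the more positive change in OCI-AML2 and 2 the more negative. FASTKD2 differed most (0.95, interval 0.74 to 1.17, adjusted p = 9.40e-08), then POLRMT (0.78), MTPAP (0.63) and POLG (0.60). TOP1MT (-0.70, adjusted p = 8.19e-08) and POLG2 (-0.68, adjusted p = 1.51e-05) went the other way. Some of these calls were close to the threshold. TWNK (0.20) was lost with quantile normalization (0.11, adjusted p = 0.25), with factors from nuclear genes (0.18, 0.0502), and without DMSO library 1 or 3 or ARM165 library 2 of MOLM14 or DMSO or ARM165 library 1 or 4 of OCI-AML2 (adjusted p 0.054 to 0.086). TFB1M (0.40) was lost with quantile normalization (0.30, adjusted p = 0.096), and without DMSO library 1 or 2 or ARM165 library 2 or 3 of MOLM14 or DMSO library 4 or ARM165 library 3 of OCI-AML2 (adjusted p 0.053 to 0.087). TEFM (0.42) was lost with quantile normalization (0.33, adjusted p = 0.051), and without ARM165 library 2 of MOLM14 or ARM165 library 1 or 4 of OCI-AML2 (adjusted p 0.053 to 0.055). Genes not called gained a call without 1 library: TFAM without ARM165 library 2 of OCI-AML2 (0.33, adjusted p = 0.0053), LRPPRC without DMSO library 2 of OCI-AML2 (0.40, 2.50e-04) and MTERF4 without ARM165 library 1 of MOLM14 (0.29, 0.042). With library totals, where the all-gene median of this difference moves by -0.16, 6 nuclear genes were more positive in OCI-AML2 in place of 14, and 38.4% of all calls were positive in place of 57.3%. Across 21 nuclear genes, the changes of the 2 lines had a Pearson r of 0.75 and a Spearman rho of 0.70, again only as a description.

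AZ2 gave no called change in any of the 35 genes. In MOLM14 AZ2 called 0% of all genes against DMSO (899 had an unadjusted p under 0.05), and in OCI-AML2 0.111%, 0.00650% higher and 0.104% lower. All 13 mitochondrial mRNAs had a higher mean with AZ2 in MOLM14, by 0.04 to 0.20, and 10 had an unadjusted p under 0.05, none of which passed the adjustment (smallest adjusted p 0.599). AZ2 library 2 was the highest of the 4 for all 13. In OCI-AML2 11 of 13 means were higher, the median was 0.087 and 1 unadjusted p was under 0.05. Nuclear genes had medians of 0.0030 and -0.0076, with 2 and 1 unadjusted p under 0.05. Intervals rest on the variation among libraries, which may be technical: for TFAM the MOLM14 interval was -0.09 to 0.11 and for MT-ND5 -0.04 to 0.18. MT-ND5 was not among the 10, and the median over the 13 mitochondrial mRNAs in MOLM14 was 0.146, so its interval does not bound theirs. POLG in OCI-AML2 was the nuclear gene with the largest AZ2 difference, 0.46 (interval 0.18 to 0.73, adjusted p = 0.588), with all AZ2 libraries above DMSO. The line difference for AZ2 called 0.0280% of genes, all with the more negative change in OCI-AML2, and 0 of the 34 members.

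Set against AZ2 in place of DMSO, ARM165 left the picture much the same, the ARM165 libraries being shared. In MOLM14 70.1% of genes were called between the compounds, 36.1% higher and 34.0% lower with ARM165, and 12 of 13 mitochondrial mRNAs and 18 of 22 nuclear genes were lower. In OCI-AML2 65.8% were called, 34.5% higher and 31.4% lower, and 12 of 13 mitochondrial mRNAs and 12 of 21 nuclear genes were lower. MT-ND5 differed by -0.74 and -0.90, TFAM by -1.12 and -0.73, and TOP1MT by -1.06 and -1.70 in MOLM14 and OCI-AML2. MT-ND1 was not called in either line (-0.01, interval -0.12 to 0.10, and -0.18, interval -0.34 to -0.01). In OCI-AML2 it was called lower with factors from nuclear genes (-0.23, adjusted p = 0.018) and without DMSO library 2 (-0.18, 0.037) or ARM165 library 2 (-0.24, 0.0087). With library totals MT-ND1 was higher with ARM165 than AZ2 in MOLM14 (0.20, adjusted p = 0.0041). FASTKD2 and MTERF1 were higher with ARM165 than AZ2 in OCI-AML2 (0.63 and 0.34), and POLG was not called (-0.13, interval -0.40 to 0.15). With quantile normalization MTERF1 was not called (0.17, adjusted p = 0.18), and without ARM165 library 2 POLG was called lower (-0.28, adjusted p = 0.014).

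The other genes of this pathway were read through 5 lists, whose counts stand beside all genes tested, of which 34.0% fell and 35.5% rose in MOLM14 and 31.6% and 34.2% in OCI-AML2. Of 32 genes that process or modify mitochondrial RNA, 22 fell and 4 rose with ARM165 in MOLM14, and 22 fell and 3 rose in OCI-AML2. TRMT10C, a subunit of the enzyme that cuts the 5′ ends of mitochondrial tRNAs, averaged 4782 ± 234 with DMSO and 1975 ± 193 with ARM165 in MOLM14 (-1.28), and 4834 ± 396 and 2368 ± 117 in OCI-AML2 (-1.03). Of 16 mitochondrial translation factors, 11 fell and 4 rose in MOLM14, and 8 fell and 2 rose in OCI-AML2. TUFM, the elongation factor that brings tRNA to the ribosome, fell (-0.94 and -0.73), and MTRF1L, a release factor, rose (0.88 and 1.21). Of 17 other genes of mitochondrial DNA maintenance, 10 fell and 5 rose in MOLM14 and 7 fell and 4 rose in OCI-AML2, where the list lay near all genes. UNG and FEN1, which also repair and copy nuclear DNA, fell by -2.16 and -1.97 in MOLM14 and by -1.95 and -2.16 in OCI-AML2, while RRM2B, the p53-inducible ribonucleotide reductase subunit, rose in MOLM14 from 635 ± 44.9 to 2612 ± 194 (2.04).

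Of 22 nuclear-encoded core subunits of the respiratory complexes, 20 fell in MOLM14 and 0 rose, and in OCI-AML2 19 fell and 1 rose, with medians of -0.63 and -0.53. NDUFS7 of complex I changed by -1.31 and -1.34, and NDUFV1 by -0.86 and -0.76. These nuclear subunits and the mitochondrial mRNAs build the same complexes, and the larger part of both fell in each line. Of 11 nuclear regulators of mitochondrial genes, 10 were tested in each line: 5 fell and 3 rose in MOLM14, and 3 fell and 5 rose in OCI-AML2. MYC averaged 27522 ± 1169.7 with DMSO and 8488 ± 1071 with ARM165 in MOLM14 (-1.70, adjusted p = 8.58e-12), and 25285 ± 1176 and 6647 ± 296 in OCI-AML2 (-1.93, adjusted p = 2.12e-13). The coactivators PPARGC1B (-1.14 and -1.80) and PPRC1 (-1.30 and -0.71) fell in both lines, and GABPB1, a subunit of the ETS complex with GABPA, rose in OCI-AML2 (1.00). Between AZ2 and DMSO, 0 members of these 5 lists were called in either line by limma.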

How the data were processed

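RNA of 24 libraries, 4 for each of 3 treatments in each of 2 cell lines, was column-purified and sequenced from poly(A)-selected, stranded libraries, per the labels' protocols. The deposited tables hold a signal per gene symbol, normalized estimated counts made by the authors with kallisto, per the submitters' processing notes. The version, genome build, annotation, scaling and use of strand are not given in the sources used here. Each line has its own table.

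Values were tested as log2(value + 1) with limma 3.58.1 (R 4.3.3), which suits normalized values: 1 mean per group, all 12 libraries of a line in 1 fit, empirical Bayes with a variance trend, 9 residual degrees of freedom, and Benjamini-Hochberg adjustment over all genes kept (a value of at least 10 in at least 4 libraries). Calls are adjusted p values under 0.05. The difference between lines was fitted over all 24 libraries and 14287 genes. Intervals are 95% intervals of single genes. The rough estimate of depth was 3.54e+07 to 5.90e+07 reads per library. The median standard error over all genes was 0.099 in MOLM14 and 0.12 in OCI-AML2. Fold changes on this scale understate those of low genes. The fit was also run on simulated data with normal noise, where 100 genes changed by 0.5 and 100 by 1, none of them low. For ARM165 against DMSO it recovered 75% and 96% of these in MOLM14 (14627 genes run), and 71% and 98% in OCI-AML2 (14738 genes run). False calls made up 6.04% and 7.14% of all calls. Far more genes were called in the real data, so these rates need not hold there.

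Members, gene lists and tests were chosen with earlier results of these data known. Values per library were meant for the mitochondrial mRNAs and for members whose change differed between lines. They were also meant for the members with the largest called changes in each role (up to 4 in each direction). Some of these, among them MT-ND4L, MT-ATP8, TFB1M, MTERF3, SSBP1 and FASTKD5, are given by range or change only, as are other members. From each list, up to 4 called genes with the smallest adjusted p per line could be named, and the cell markers and the copy MTND1P23 were named after their values were seen. Lengths per kilobase and overlaps come from GENCODE release 29, and promoters from RefSeq (GRCh38.p14). Alternatives varied the pseudocount, filter, scaling, variance trend, libraries, groups in the fit and replicate block. Of 24 symbols listed for mitochondrial rRNAs and tRNAs, 0 were matched, so these RNAs were not analysed here.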

Additional observations from a re-analysis of the deposited data

Results flagged for a closer look

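In 213 groups of 4 libraries, 10 had a library far from the other 3, where chance gives about 10.65 (1 in 20 groups). In MOLM14 these were MT-ND5 in DMSO library 3 (198453 normalized counts), MT-ND6 in AZ2 library 2 (65413) and FASTKD5 in ARM165 library 4 (3271). In OCI-AML2 they were MT-ND3 in DMSO library 1 (44697), MT-ND5 in AZ2 library 3 (214136), MT-CO3 in AZ2 library 4 (485724), MTERF1 in ARM165 library 4 (336), MTERF3 in AZ2 library 2 (4289), POLG in ARM165 library 2 (3498) and MTPAP in DMSO library 2 (2191). Of these libraries, leaving out its own changed calls for POLG only: the rise against DMSO was no longer called (0.18, adjusted p = 0.104 by limma), and ARM165 was lower than AZ2 (-0.28, adjusted p = 0.0144).

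The change with ARM165 differed between the lines by a test of the difference itself in 20 members (OCI-AML2 minus MOLM14, log2). Over all 14287 genes in that test 42.4% were called, 24.3% with the more positive change in OCI-AML2 and 18.1% with the more negative. The more negative change in OCI-AML2 was that of MT-ND2 (-0.30), MT-ND3 (-0.34), MT-CO1 (-0.36), MT-CYB (-0.27), POLG2 (-0.68) and TOP1MT (-0.70). Among genes grouped under transcription the more positive change was that of POLRMT (0.78), MTERF1 (0.46), TEFM (0.42), TFB1M (0.40), MTERF3 (0.40) and TFB2M (0.29). Among replication genes it was that of POLG (0.60), SSBP1 (0.35) and TWNK (0.20). Among genes of RNA stability and processing it was that of FASTKD2 (0.95), MTPAP (0.63), PNPT1 (0.48), SLIRP (0.47) and FASTKD5 (0.29). The calls of TWNK, TFB1M and TEFM were lost without any 1 of several libraries, named above. With library totals these calls and those of TFB2M, MTERF1, MTERF3, SSBP1 and FASTKD5 were lost. TFB2M, TWNK, PNPT1 and SLIRP fell in both lines, and FASTKD2 fell in MOLM14 and rose in OCI-AML2.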

How the results depend on the processing

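Scaling moved the counts most. With quantile normalization, 5 mitochondrial mRNAs were lower and 2 higher for ARM165 against DMSO in MOLM14, and 7 lower and 2 higher against AZ2. For the lines' difference, 9 were lower. Nuclear genes called higher in OCI-AML2 fell to 1 against DMSO and 1 against AZ2. With library totals, 2 mitochondrial mRNAs were higher against DMSO and 1 against AZ2 in MOLM14. For the lines' difference, 9 mitochondrial mRNAs were lower and 6 nuclear genes higher. With no filter, 0 mitochondrial mRNAs were higher in MOLM14 and 2 nuclear genes in OCI-AML2. Factors from nuclear genes and no variance trend each gave 2 for the latter.

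Direction reversed in MOLM14 against DMSO for MT-ND2 (0.032), MT-ND4 (0.014) and MT-CYB (0.22) with quantile normalization, and for MT-CYB (0.13) and POLG2 (0.0032) with library totals. Against AZ2 it reversed for MT-ND1 (0.29 with quantile normalization, 0.20 with library totals) and MT-CYB (0.19 and 0.060). For the lines' difference it reversed for MT-CO3 with quantile normalization (-0.21). The cause was not tested.

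Leaving out 1 library at a time, mitochondrial mRNAs called higher in MOLM14 against DMSO ranged from 0 to 1 (0 without DMSO library 1, 3 or 4 or ARM165 library 1 or 2), and nuclear genes called higher in OCI-AML2 from 2 to 5, with 2 without DMSO library 1 or 4. For the lines' difference, mitochondrial mRNAs called lower ranged from 4 to 8 (8 without OCI-AML2 ARM165 library 2), nuclear genes called higher from 11 to 15, and for AZ2 from 0 to 1 (POLG, without that library).

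Libraries with the same replicate number showed no strong shared deviation. Their deviations correlated at -0.026 to 0.056 in MOLM14 (median 0.019) and -0.037 to 0.047 in OCI-AML2 (median 0.011). With different numbers the ranges were -0.063 to 0.046 (median -0.0074) and -0.056 to 0.044 (median -0.0050). These values cannot show whether libraries of the same number shared a culture or batch. With the number as a replicate block, 11 and 12 mitochondrial mRNAs were lower for ARM165 against DMSO in MOLM14 and OCI-AML2, 21 and 12 nuclear genes were lower and 4 were higher in OCI-AML2, the counts without it. Leaving mitochondrial rRNAs and tRNAs out of the denominator left every share as it was, since 0 of their symbols were matched.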

Other observations

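Some symbols named as nuclear copies of mitochondrial genes were called with ARM165. Of 407 such symbols, 16 passed the filter in MOLM14, of which 7 rose and 2 fell, and 15 in OCI-AML2, of which 5 rose and 4 fell. Over all genes 35.5% rose and 34.0% fell in MOLM14, and 34.2% and 31.6% in OCI-AML2, near which the OCI-AML2 counts lie. MTRNR2L12, a copy of the large mitochondrial ribosomal RNA gene, averaged 89888 ± 1980.6 normalized counts with DMSO and 139561 ± 7859 with ARM165 in MOLM14 (0.63, adjusted p = 8.7e-09 by limma). In OCI-AML2 it averaged 109212 ± 8154 and 124088 ± 4246 (0.19, adjusted p = 0.0101). No ARM165 library overlapped a DMSO library in either line. Reads of such a copy and of the mitochondrial gene it resembles cannot be told apart in these tables. The copy MTCO1P12 fell in OCI-AML2 (-0.93), as MT-CO1 did. MTND1P23 did not pass the test in MOLM14 (0.06, adjusted p = 0.442) and fell in OCI-AML2 (-0.42, adjusted p = 0.0112, groups overlapping), where MT-ND1 was not called.

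MT-ND4L took a different share of the mitochondrial mRNA sum in the 2 lines with DMSO, a ratio within a library that a library's scaling factor leaves unchanged. It was 0.465%, from 0.444 to 0.487%, in the MOLM14 libraries and 1.15%, from 1.08 to 1.26%, in OCI-AML2, with no overlap. MT-ND4, with which it shares an mRNA, took 12.2% and 12.4%, so the share of MT-ND4L cannot be read as an amount of mRNA. The part of read assignment to this short gene was not tested.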
